A study of Arabidopsis thaliana with 36 samples.

Results

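The subject of this account is a set of 60 probe sets whose signal in Arabidopsis thaliana roots was higher on nitrate than on chloride in each of the 6 comparisons that the study design allows. They were chosen from 16091 probe sets with a mean signal of 69 or more over all arrays, out of 22810 on the array. For each probe set the group mean of log2(signal + 16) on KNO3 minus that on KCl was taken on split and on uniform plates for each of 2 hours, 8 hours and 2 days. The 60 with the highest minimum of these 6 differences are the members. The rule leaves out 6 single probe sets and those of 3 genes, AT5G62720, AT1G25550 (HHO3) and AT1G68670 (HHO2), so that nothing in the set describes them. The nitrate differences chose the members, and they are given below as a description without a test. Time and plate, averaged over the salts, carry no weight on those differences and were tested. For plate this holds only if the KCl samples are read by their titles, which are at odds with their treatment fields.

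All groups are roots of the accession Columbia in a split-root system, in which the paired main roots of a plant grow apart on an agar plate with separated sides. The plants were raised with 0.5 mM NH4-succinate, 0.1 mM KNO3 and 3 mM sucrose, kept their paired roots with ammonium succinate as nitrogen source, and went to the treatment plates at an age of 12 to 14 days. Treatment plates held 0.3 mM sucrose and 5 mM KNO3 or 5 mM KCl. Sp.NO3 and Sp.KCl are the nitrate and the chloride side of split plates, C.NO3 and C.KCl are roots of uniform plates with 1 salt on both sides, and each was harvested after 2 hours, 8 hours or 2 days, with 3 biological repeats, which makes 12 groups and 36 arrays. Nitrate is both the main nitrogen source of many plants and a signal. Roots import it through transporters of the NPF and NRT2 families, reduce it through nitrate reductase and nitrite reductase, and draw on the pentose phosphate pathway for the electrons. Transcription factors of the NLP family switch on many of these genes when nitrate arrives, and the HHO (NIGT1) repressors, themselves induced by nitrate, dampen part of the response. On a split plate a root meets its own salt while the shoot integrates both sides, so that local and whole-plant signals can differ.

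The values are MAS5 signals of single arrays, with array medians of 194 to 222 and correlations of 0.961 to 0.987 between arrays of a group. The labels of the KCl samples are at odds, since a sample titled as split is described as uniform in its treatment field, and the reverse. The titles were followed, and every value that sets Sp.KCl apart from C.KCl rests on that reading. Of 9 listed root markers 2 had a probe set of their own, and both were bright. The mean signal was 1212 for EXPA7 and 1024 for EXPA18, expansins of root hairs. Of 9 listed leaf markers 2 had one, with means of 95.3 for LHCB4.2, a light-harvesting protein, and 353 for RCA, Rubisco activase. An index of RNA and labelling quality, the mean log2 ratio of 3′ over 5′ control probe sets, ran from 0.659 to 1.17 at 2 hours, from 0.611 to 1.11 at 8 hours and from 1.03 to 1.27 at 2 days. At 2 hours it averaged 0.875 ± 0.114 in Sp.NO3, 0.769 ± 0.0978 in C.NO3 and 0.839 ± 0.102 in Sp.KCl, against 1.07 ± 0.105 in C.KCl (SD, n = 3 each). With 3 arrays a group, the number of arrays limits the precision, and p-values measure the spread between these repeats.

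The platform's annotation lists 1 gene for 23 of the 60 members, several for 1 (262655_s_at) and none for 36. The share with no listed gene was 60% among the members and 42.7% among all probe sets tested. Members without a listed gene are given by the probe set's identifier. All but 262655_s_at carry the plain ending that the array's design gave to probes meant for a single transcript. The 23 genes all have a RefSeq locus tag (assembly TAIR10.1). Among them are regulators and signalling proteins. AT3G16560 and AT5G26010 belong to the PP2C family of protein phosphatases, and AT1G31050 is a basic helix-loop-helix protein, a class of DNA-binding regulators. Enzymes form another group. AT1G80380 is glycerate kinase, the last enzyme of photorespiration. AT4G37550 is of the acetamidase/formamidase family, AT1G73920 is a lipase-like alpha/beta hydrolase, and AT3G01260 is galactose mutarotase-like. AT2G29340 and AT2G29320 are short-chain dehydrogenases of the tropinone reductase type that lie near each other, with 1 protein-coding gene between them. The remaining named genes are known by a domain or family. AT5G10580 and AT5G43180 are DUF599 proteins, AT4G25835 is a P-loop ATPase, AT5G39590 has a TLD domain, AT3G45210 is a DUF584 and AT3G07350 a DUF506 protein, AT4G05070 is of a wound-responsive family, AT5G16860 is a pentatricopeptide repeat protein and AT4G30460 is glycine-rich. AT5G19970, AT1G16170, AT3G47510, AT3G18560 and AT1G67920 have no role given here.

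Over the 6 comparisons the mean difference of a member, nitrate minus chloride, lay between 0.32 and 2.32 on the log2 scale with a median of 0.53, which is 1.25-fold to 5.00-fold with a median of 1.45-fold. For 33 members it was 0.5 or more and for 9 it was 1 or more. The smallest of the 6 differences ran from 0.17 to 1.79, with a median of 0.27, and was 1 or more for 4 members. The members were neither only bright nor only quiet probe sets. Their mean signals spanned 71.3 to 5255 with a median of 450, against a median of 390 over all probe sets tested, and their SD within groups had a median of 0.233 log2, against 0.191. The heat map of the 6 differences shows a few members far above the rest. 252367_at was higher on nitrate by 2.19, 1.92 and 2.2 on split plates and by 1.79, 2.83 and 2.76 on uniform plates, at 2 hours, at 8 hours and at 2 days in that order. 259681_at grew over the times to 3.74 on split and 3.06 on uniform plates at 2 days. In bulk roots a difference in the number of cells of a type and one in RNA per cell cannot be told apart.

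**Figure D1:**
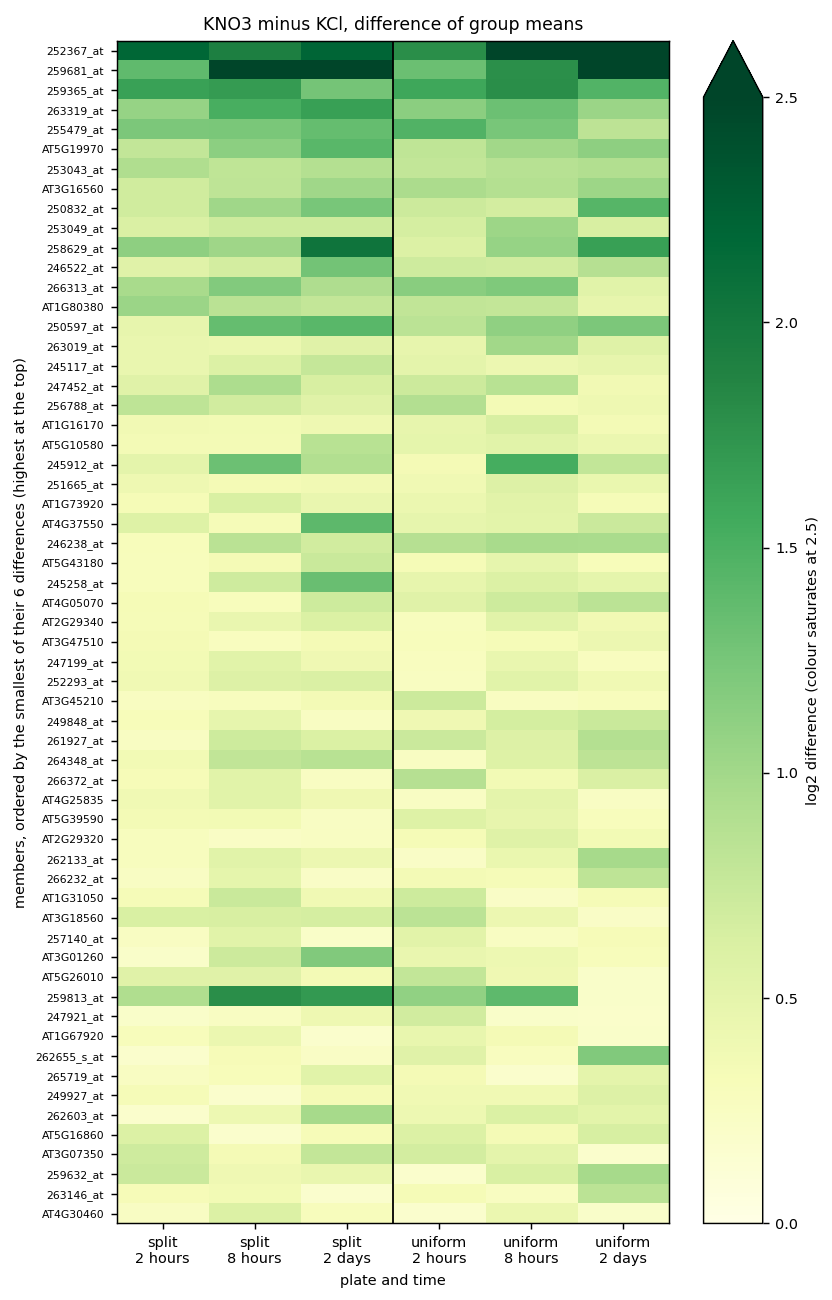
Difference of group means, KNO3 minus KCl, on the log2(signal + 16) scale for the 60 members (down the page, ordered by their smallest difference) in the 6 comparisons (across, split plates left of uniform plates). Each cell is 3 against 3 arrays. The upper rows (252367_at, 259681_at, 259365_at, 263319_at) are above 1 in all columns, and most others stay below 1.

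The comparisons contributed unequally. The median difference of the members on split plates was 0.38 at 2 hours, 0.57 at 8 hours and 0.62 at 2 days, and on uniform plates 0.55, 0.55 and 0.53. The mean of both plates was highest at 2 hours for 12 members, at 8 hours for 21 and at 2 days for 27. The comparison that held a member's smallest difference, and so decided its place in the set, was split at 2 hours for 13 members, split at 8 hours for 9 and split at 2 days for 8. It was uniform at 2 hours for 11, uniform at 8 hours for 5 and uniform at 2 days for 14. Between the plates the nitrate difference over the times was larger on split plates for 34 members and on uniform plates for 26. The split-minus-uniform value ran from -0.43 to 0.58 with a median of 0.02. AT1G80380 and AT3G18560 had their highest mean difference at 2 hours, AT1G73920 and AT1G16170 at 8 hours, and AT5G19970, AT3G16560 and AT5G10580 at 2 days.

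All 3 nitrate arrays lay above all 3 chloride arrays in 261 of the 360 comparisons of members. On split plates this held for 35 members at 2 hours, 50 at 8 hours and 45 at 2 days, while 2.64%, 5.23% and 8.74% of all probe sets tested did so. On uniform plates it held for 41, 44 and 46 members, while 7.38%, 9% and 11.5% of all did so. The rule used these contrasts, so nothing is read from the gap. The groups were apart in all 6 comparisons for 18 members and in only 1 for 3 members, AT3G47510, AT2G29320 and 263146_at, which were picked out after their values were seen. The last 5 members inside the limit had smallest differences of 0.181 (AT5G16860), 0.179 (AT3G07350), 0.177 (259632_at), 0.176 (263146_at) and 0.172 (AT4G30460). The first 5 outside had 0.168 (267254_at), 0.168 (AT4G33420), 0.165 (253696_at), 0.164 (267610_at) and 0.163 (262134_at), so that the limit falls within a continuous run of values.

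The signals of single arrays show what the differences rest on. AT5G19970 was the member with a listed gene whose smallest difference was highest, 0.79. At 2 hours AT5G19970 had signals of 412, 531 and 519 in Sp.NO3 and 510.2, 519 and 513 in C.NO3, against 208, 344 and 284 in Sp.KCl and 227, 329 and 319 in C.KCl. The nitrate arrays lay above all chloride arrays of that time. At 8 hours AT5G19970 had 476, 530.4 and 432 in Sp.NO3 and 451, 445 and 465 in C.NO3, against 209, 229 and 194 in Sp.KCl and 219, 226 and 209.6 in C.KCl. Again the 2 salts did not overlap. At 2 days AT5G19970 had 956, 858 and 909 in Sp.NO3 and 662, 709 and 815 in C.NO3, against 358, 291 and 339.8 in Sp.KCl and 308, 299 and 378 in C.KCl. The nitrate roots of split plates were the highest of that time. The difference grew on split plates with 0.79, 1.13 and 1.42 at 2 hours, at 8 hours and at 2 days, and on uniform plates with 0.80, 1.01 and 1.11.

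The phosphatase AT3G16560 differed by 0.68 to 1.03 in the 6 comparisons. At 2 hours AT3G16560 had signals of 576, 787 and 961 in Sp.NO3 and 741, 784 and 969 in C.NO3, against 457, 434 and 510.0 in Sp.KCl and 386, 434 and 449 in C.KCl. No nitrate array was as low as a chloride array. At 8 hours AT3G16560 had 979, 1290.0 and 1223 in Sp.NO3 and 1054, 1177 and 1302 in C.NO3, against 495, 796 and 690.3 in Sp.KCl and 497, 722 and 694 in C.KCl. The mean of each group was higher than at 2 hours, and the salts stayed apart. At 2 days AT3G16560 had 721, 869 and 774 in Sp.NO3 and 712, 692 and 549 in C.NO3, against 305, 375 and 484 in Sp.KCl and 402, 319 and 229.6 in C.KCl. All nitrate arrays again exceeded all chloride arrays, the lowest nitrate array being of C.NO3 and the highest chloride array of Sp.KCl.

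Glycerate kinase, AT1G80380, differed by 0.48 to 1.04. At 2 hours AT1G80380 had signals of 1007, 548 and 700.1 in Sp.NO3 and 448, 934 and 588 in C.NO3, against 244, 372 and 455 in Sp.KCl and 375, 316 and 375 in C.KCl. The spread within groups was wide, and within each plate the salts did not overlap. At 8 hours AT1G80380 had 676, 1119.9 and 907 in Sp.NO3 and 842, 922 and 1129 in C.NO3, against 422, 519.6 and 522 in Sp.KCl and 317, 841 and 622 in C.KCl. The C.KCl arrays were spread widely, and the highest of them came up to just below the lowest of C.NO3. At 2 days AT1G80380 had 517, 718 and 502 in Sp.NO3 and 373, 592 and 323 in C.NO3, against 343, 357 and 287 in Sp.KCl and 234, 312 and 346 in C.KCl. Of the 6 comparisons the uniform one at 2 days had the smallest difference, and there 1 C.NO3 array fell below the highest C.KCl array.

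AT1G16170 differed by 0.36 to 0.63, with groups apart in all 6 comparisons. At 2 hours AT1G16170 had signals of 566, 586 and 583 in Sp.NO3 and 658, 576 and 647 in C.NO3, against 475, 426 and 428 in Sp.KCl and 427, 486 and 428 in C.KCl. The spread within groups was narrow. At 8 hours AT1G16170 had 430.4, 485 and 515 in Sp.NO3 and 608, 546 and 514 in C.NO3, against 383, 424 and 301 in Sp.KCl and 351, 339 and 371 in C.KCl. The mean of each group was lower than at 2 hours. At 2 days AT1G16170 had 780.5, 869 and 787 in Sp.NO3 and 898, 818 and 731 in C.NO3, against 649, 629 and 555 in Sp.KCl and 705, 622 and 574 in C.KCl. Both salts were at their highest, and the lowest C.NO3 array lay just above the highest C.KCl array.

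The DUF599 protein AT5G10580 is among the brighter members, with a mean signal of 2166, and differed by 0.35 to 0.85. At 2 hours AT5G10580 had signals of 2226, 2443 and 3113 in Sp.NO3 and 2485, 2739 and 2744 in C.NO3, against 1640.1, 2037 and 2404 in Sp.KCl and 1826, 1781 and 2047 in C.KCl. In Sp.NO3 and Sp.KCl the arrays of the 2 salts overlapped at this time. At 8 hours AT5G10580 had 2639.6, 2617 and 2471 in Sp.NO3 and 2896, 2731 and 3022 in C.NO3, against 1874, 2306 and 1882 in Sp.KCl and 1918, 1874 and 2139 in C.KCl. The salts were apart on both plates. At 2 days AT5G10580 had 2454, 2699 and 2416 in Sp.NO3 and 1861, 2313 and 1785 in C.NO3, against 1707, 1256 and 1249 in Sp.KCl and 1546, 1346 and 1471 in C.KCl. On split plates this was the largest of its 6 differences, 0.85, against 0.44 on uniform plates.

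The lipase-like AT1G73920 differed by 0.33 to 0.62. At 2 hours AT1G73920 had signals of 1068, 1167 and 1392 in Sp.NO3 and 988, 1295 and 1334 in C.NO3, against 795, 975 and 1103 in Sp.KCl and 835, 915 and 893 in C.KCl. 1 Sp.NO3 array lay below the highest Sp.KCl array. At 8 hours AT1G73920 had 1395, 1363 and 1399 in Sp.NO3 and 1224, 1332 and 1451 in C.NO3, against 802, 959.7 and 931 in Sp.KCl and 754, 972 and 1052 in C.KCl. All nitrate arrays were above all chloride arrays. At 2 days AT1G73920 had 1078, 1184 and 1122 in Sp.NO3 and 1078, 1137 and 1008 in C.NO3, against 725, 755 and 1007 in Sp.KCl and 739, 846 and 990.3 in C.KCl. The nitrate arrays stayed just above the chloride arrays.

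**Figure D2:**
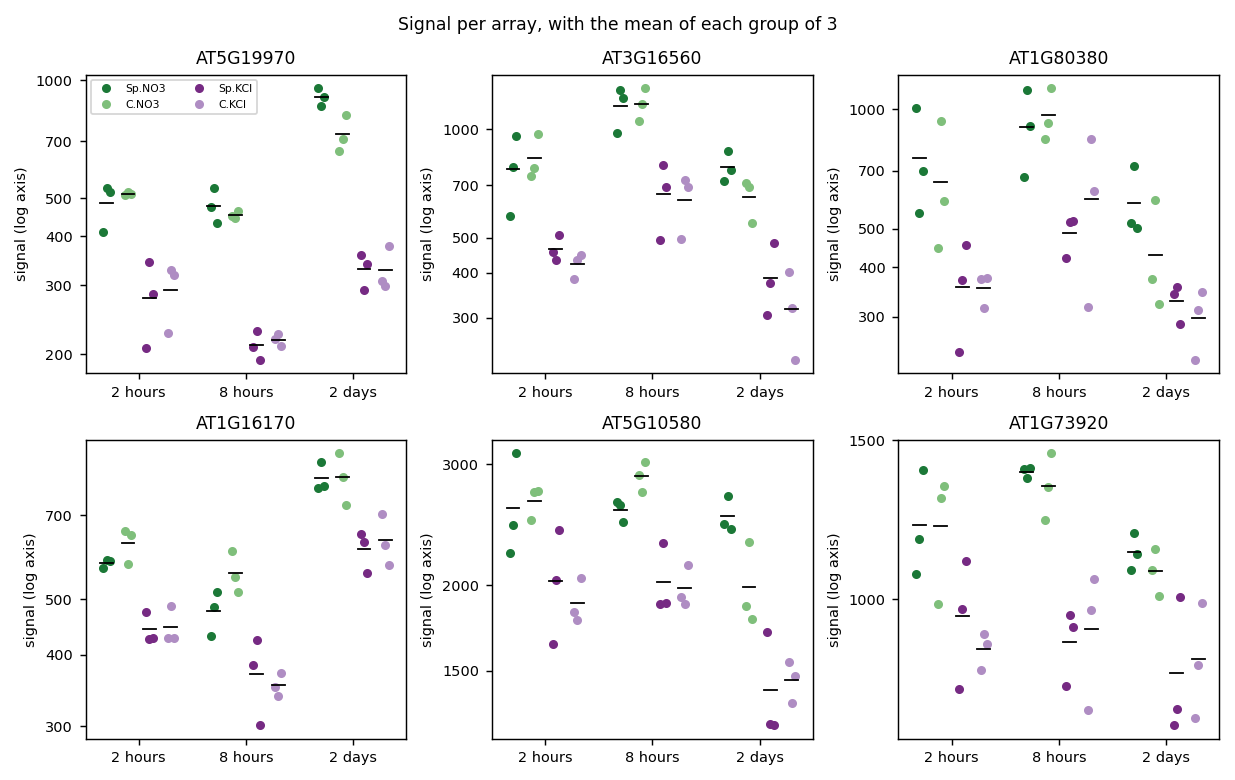
Signal of every array (points, log axis) for the 6 members with a listed gene and the highest smallest difference, by time (across) and root type, in the order Sp.NO3, C.NO3, Sp.KCl and C.KCl. Lines are means of 3 arrays. The nitrate arrays (green) lie above the chloride arrays (purple) with few overlaps, while the level of both salts moves with time.

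The other members with a listed gene are given here because they carry a name, whatever their size. Of the regulators, AT5G26010 differed by 0.20 to 0.79 and AT1G31050 by 0.22 to 0.74, both with their largest value at 2 hours or 8 hours. Among the enzymes AT4G37550 differed by 0.32 to 1.40, with 1.40 on split plates at 2 days, and AT3G01260 by 0.20 to 1.2, with 1.2 in the same comparison. The neighbouring dehydrogenases AT2G29340 and AT2G29320 differed by 0.27 to 0.60 and by 0.23 to 0.56. AT4G05070, of the wound-responsive family, differed by 0.28 to 0.83, and AT5G43180, the second DUF599 protein, by 0.29 to 0.74. Smaller and more even were AT3G47510 (0.27 to 0.43), AT4G25835 (0.24 to 0.54), AT5G39590 (0.24 to 0.57) and AT1G67920 (0.19 to 0.47). AT3G45210 reached 0.72 on uniform plates at 2 hours and stayed between 0.26 and 0.36 elsewhere. AT3G18560 differed by 0.22 to 0.84, with its 6 comparisons all free of overlap. AT5G16860, the dimmest member with a mean signal of 71.3, differed by 0.18 to 0.64, AT3G07350 by 0.18 to 0.78 and AT4G30460 by 0.17 to 0.59.

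Several of the strongest members have no listed gene. At 2 hours 259681_at had signals of 495, 306 and 217 in Sp.NO3 and 639, 283 and 383 in C.NO3, against 168, 107 and 80.4 in Sp.KCl and 264, 104 and 131 in C.KCl. Replicate 1 was the highest array of each group at that time. At 2 days 259681_at had 7619, 8735 and 6464 in Sp.NO3 and 5081, 5211 and 3064 in C.NO3, against 439, 534 and 715 in Sp.KCl and 606, 373 and 568 in C.KCl. The nitrate arrays were several-fold higher at 2 days than at 2 hours on both plates, and far above chloride. In 252367_at the 6 nitrate arrays ran from 120.0 to 577 at 2 hours (median 223), from 395 to 1244 at 8 hours (median 917) and from 157 to 382 at 2 days (median 242). The 6 chloride arrays of 252367_at ran from 14.1 to 92.1 (median 62.7), from 93.1 to 270.5 (median 130.4) and from 13.8 to 52.6 (median 37.3). Its lowest chloride signals lie below the offset of 16, where the log2 scale understates a fold. 259365_at differed by 1.26 to 1.80, 263319_at by 1.04 to 1.65 and 255479_at by 0.83 to 1.47, each without overlap in any comparison. 253043_at was the most even of the stronger members, with differences of 0.79 to 0.91. Of the next members by smallest difference, 250832_at differed by 0.67 to 1.44, 253049_at by 0.61 to 1.03, 258629_at by 0.59 to 2.04, 246522_at by 0.55 to 1.28 and 266313_at by 0.54 to 1.21. The last of the leading 20 were 250597_at (0.47 to 1.42), 263019_at (0.43 to 1.00), 245117_at (0.42 to 0.77), 247452_at (0.38 to 0.93) and 256788_at (0.36 to 0.89). 246522_at, though strong in its means, had non-overlapping groups in 2 comparisons.

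The level of the members moved with time. Averaged over the 4 root types, 45 of 60 members passed the threshold (adjusted p under 0.05) between 2 hours and 8 hours in limma, 29 higher and 16 lower at 8 hours, while 44.9% of all probe sets passed (22.5% higher and 22.4% lower). The median difference of the members was 0.17, against -0.01 over all probe sets, and the median size without sign was 0.45, against 0.17. Between 8 hours and 2 days 42 members passed, 13 higher and 29 lower at 2 days, while 62.5% of all passed (32.5% higher and 30% lower). From 2 hours to 2 days 45 passed, 19 higher and 26 lower at 2 days, while 63.9% of all did (32.3% higher and 31.6% lower). A rise at 8 hours and a fall at 2 days, each past the threshold, was the course of 20 members and of 10.8% of all probe sets. A fall and then a rise was the course of 8 members (10.4% of all), 2 rises that of 3 (4.7%) and 2 falls that of 1 (4.19%). With no call in the later step, 6 rose (6.99%) and 7 fell (7.78%), and with no call in the earlier step, 2 rose (17.4%) and 8 fell (15%). Neither step passed for 5 members (22.8%). The quality index was higher on the arrays of 2 days, as given above, and its part in these counts was not tested apart from adding it as a covariate. With the covariate 29 lower members at 2 days against 8 hours became 12, with 12 higher, and 26 lower members at 2 days against 2 hours became 17. Calls among all probe sets, in either direction, fell as well, from 10051 to 4597 and from 10286 to 6393. The 20 members that rose and then fell became 9, while 6.56% of all probe sets had that course. Each array belongs to 1 time, so that a difference between harvests and time itself cannot be told apart. The fit takes all arrays as independent. With the group means taken off, same-numbered arrays of Sp.NO3 and Sp.KCl correlated at 0.319 to 0.666 at 2 hours. At 8 hours these correlations were 0.270 to 0.345, and at 2 days 0.0817 to 0.175. Where arrays of a time move together, the SE of a mean over root types is understated and its p-value is too small. Where all 4 root types of a time move alike, the SE of a difference between plates is instead overstated.

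Among members higher at 8 hours, 259681_at had the largest change, 2.56 ± 0.17 (SE, adjusted p = 1.57e-13 in limma), followed by 259813_at with 1.94 ± 0.14. At 2 hours 259813_at had signals of 185, 238 and 272 in Sp.NO3 and 293, 329 and 263 in C.NO3, against 84.4, 132 and 131 in Sp.KCl and 111, 132 and 147 in C.KCl. At 8 hours 259813_at had 1254, 1328 and 1505 in Sp.NO3 and 1013, 1484 and 1138 in C.NO3, against 215, 507 and 503 in Sp.KCl and 483, 495 and 374 in C.KCl. Every array of 8 hours was above all arrays of its root type at 2 hours. At 2 days 259813_at had 226, 237 and 225 in Sp.NO3 and 149, 114 and 52.7 in C.NO3, against 52.4, 42.5 and 90.2 in Sp.KCl and 50.7, 115 and 95.2 in C.KCl. It fell by 2.63 ± 0.14 from 8 hours to 2 days (adjusted p = 2.44e-16), and the C.NO3 arrays then overlapped with those of C.KCl. 255479_at rose by 0.79 ± 0.07, 245117_at by 0.84 ± 0.09 and 256788_at by 0.82 ± 0.09 at 8 hours. Among named genes AT4G05070 rose by 0.89 ± 0.14 at 8 hours and fell by 1.24 ± 0.14 at 2 days. The dehydrogenase AT2G29320 rose by 0.69 and fell by 1.45 ± 0.14, while its neighbour AT2G29340 fell in both steps and was lower at 2 days than at 2 hours by 1.36 ± 0.12. The phosphatases AT3G16560 and AT5G26010 and glycerate kinase AT1G80380 also rose at 8 hours, by 0.53, 0.49 and 0.49, and fell at 2 days by 0.78, 0.26 and 0.80.

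Other members fell early. AT3G47510 fell by 1.21 ± 0.09 at 8 hours (adjusted p = 3.85e-12), 262133_at by 0.99 ± 0.07, 262603_at by 0.94 ± 0.09 and 264348_at by 0.58 ± 0.06. At 2 hours AT4G30460 had signals of 891, 685 and 880.1 in Sp.NO3 and 907, 731 and 877 in C.NO3, against 625, 555 and 925 in Sp.KCl and 868, 585 and 793 in C.KCl. At 8 hours AT4G30460 had 363, 436 and 362 in Sp.NO3 and 454, 366 and 399 in C.NO3, against 233, 233 and 289 in Sp.KCl and 268, 288 and 338 in C.KCl. All arrays of 8 hours were below all arrays of 2 hours. At 2 days AT4G30460 had 682, 698 and 796 in Sp.NO3 and 629, 557 and 652 in C.NO3, against 698, 520.3 and 562 in Sp.KCl and 482, 473 and 654 in C.KCl. This glycine-rich protein fell by 1.18 ± 0.08 and then rose by 0.86 ± 0.08. AT1G16170 rose by 0.70 ± 0.06 and AT5G19970 by 0.68 ± 0.07 between 8 hours and 2 days, after a fall of 0.26 and 0.23. 259365_at, AT3G01260 and 258629_at rose in both steps, and their change from 2 hours to 2 days was 1.41 ± 0.08, 0.89 ± 0.08 and 1.32. 259632_at had the smallest p of the members at 2 days against 8 hours, with a fall of 2.56 ± 0.13 (adjusted p = 5.74e-17), and 246238_at fell by 1.65 ± 0.15. At 2 days 259632_at had 98.8, 103 and 132 in Sp.NO3 and 74.6, 79.0 and 96.5 in C.NO3, against 79.4, 66.3 and 83.4 in Sp.KCl and 25.3, 16.3 and 80.1 in C.KCl. At 8 hours its signals had been between 325 and 688. AT3G18560, AT5G16860, 261927_at, 250597_at and 246522_at did not pass in either of these steps.

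**Figure D3:**
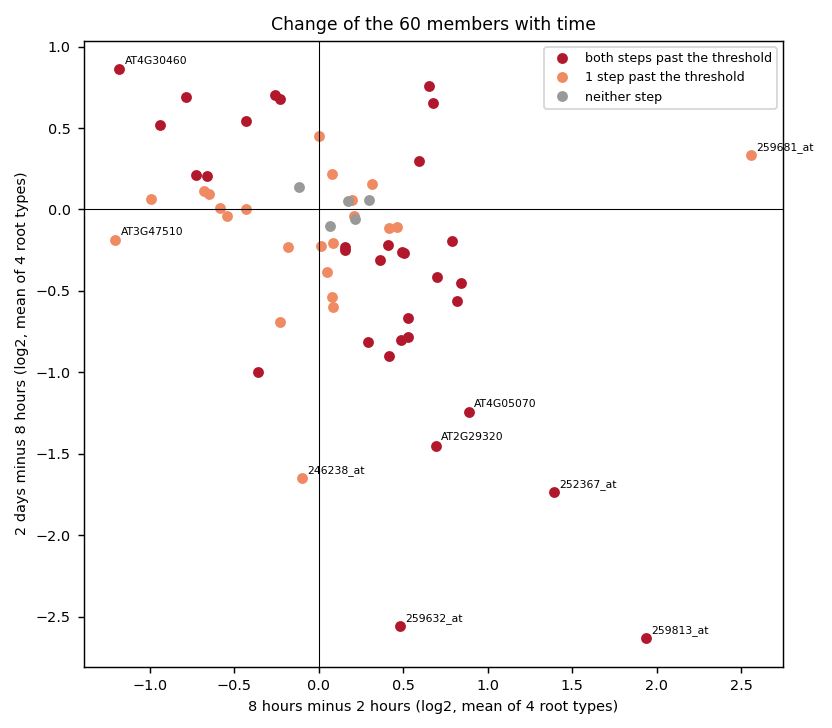
Change of the 60 members from 2 hours to 8 hours (across) and from 8 hours to 2 days (up), as log2 differences averaged over the 4 root types, with colour giving how many of the 2 steps passed the threshold. The lower right part, higher at 8 hours and lower at 2 days, is the fullest, and 259813_at lies farthest along it. 259681_at lies alone at the right.

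The direction of the time changes was alike on both salts in the medians. Between 2 hours and 8 hours the median change was 0.22 on nitrate, with 41 members higher, and 0.13 on chloride, with 35 members higher. Between 8 hours and 2 days it was -0.17 on nitrate and -0.12 on chloride. The difference between the salts is a weighting of the values that chose the members and was not tested.

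Split and uniform plates were compared with both salts averaged. No member passed the threshold over the times or at any single time. In limma 0 of 60 passed over the times, at 2 hours and at 8 hours, where 0%, 0.00621% and 0% of all probe sets passed. At 2 days 0 of 60 passed as well, where 0.0808% of all did, and the test of a plate difference that changes from 2 hours to 2 days gave 0, where 0.00621% of all passed. At an unadjusted limma p under 0.05 there were 10 members over the times, 1 at 2 hours, 2 at 8 hours, 13 at 2 days and 9 for the change. Of all probe sets 6.79%, 5.98%, 2.9%, 7.24% and 5.1% did so, in that order. The methods' kind of test, ordinary least squares at p under 0.001 and adjusted p under 0.2, called 2 members at 2 days and none in the other plate tests. Among all probe sets it called 5 over the times, 16 at 2 hours, 0 at 8 hours, 42 at 2 days and 2 for the change. With a replicate block, a term for the repeat number, limma called 4 members at 2 days and 1 for the change, of 66 and 13 among all. Same-numbered plates at 2 days correlated down to 0.0672 on nitrate and -0.0509 on chloride. At 2 days 50 of 60 members had the higher value on split plates, with a median difference of 0.15, while 46.9% of all probe sets did, with a median of -0.01. Within groups the members' deviations had a mean pairwise correlation of 0.119 across arrays, so that the 60 are not independent observations. At 2 hours 37 members were higher on split plates with a median of 0.03, and at 8 hours 25 with a median of -0.03. These values take the KCl samples by their titles. With Sp.KCl and C.KCl exchanged, 36 members were higher on split plates at 2 days with a median of 0.04, 19 at 2 hours with -0.03 and 32 at 8 hours with 0.02. The exchanged values, here and below, are a weighting of the nitrate differences that chose the members. They are a description and no independent check of the plate difference. At 2 days the members' split-minus-uniform value was positive for 51 on the nitrate side, with a median of 0.20, and for 42 on the chloride side, with a median of 0.13. Plate values on 1 salt alone, here and below, also carry weight on the differences that chose the members and were not tested. The chloride value turns with the labels, to 18 positive and a median of -0.13 when they are exchanged, and the sides then run opposite ways.

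The members of smallest p at 2 days were 262655_s_at, with 0.61 ± 0.14 (SE, limma adjusted p = 0.0784), and 245912_at, with 0.40 ± 0.09 (adjusted p = 0.0900). At 2 days 262655_s_at had signals of 383, 207 and 303 in Sp.NO3 and 221, 300.3 and 272 in C.NO3, against 264, 209 and 259.9 in Sp.KCl and 89.9, 102 and 128 in C.KCl. Its 3 C.KCl arrays were the lowest of that time, and the plate difference was 1.09 on chloride and 0.13 on nitrate. At 2 days 245912_at had 478, 510.0 and 558 in Sp.NO3 and 409, 413 and 303 in C.NO3, against 298, 224 and 288 in Sp.KCl and 221, 190.2 and 213 in C.KCl. All split arrays of 245912_at were above all uniform arrays of their salt, and the difference was 0.45 on nitrate and 0.34 on chloride. AT3G18560 came next with 0.38 ± 0.10 (adjusted p = 0.172), made of 0.60 on nitrate and 0.17 on chloride. 250832_at differed by 0.46 ± 0.12 and 259632_at by 0.61 ± 0.18. AT3G07350 ran the other way with -0.56 ± 0.20 (adjusted p = 0.478). With exchanged KCl labels the mean of both salts was -0.48 for 262655_s_at, 0.06 for 245912_at, 0.22 for AT3G18560 and 0.30 for AT3G07350. Without replicate 3 of C.KCl at 2 days 3 members passed at 2 days, 262655_s_at, 250832_at and 259632_at. 262655_s_at passed alone without replicate 3 of Sp.KCl at 2 hours and without replicate 2 of Sp.NO3 at 2 days, and 250832_at alone without replicate 3 of Sp.KCl at 2 days.

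**Figure D4:**
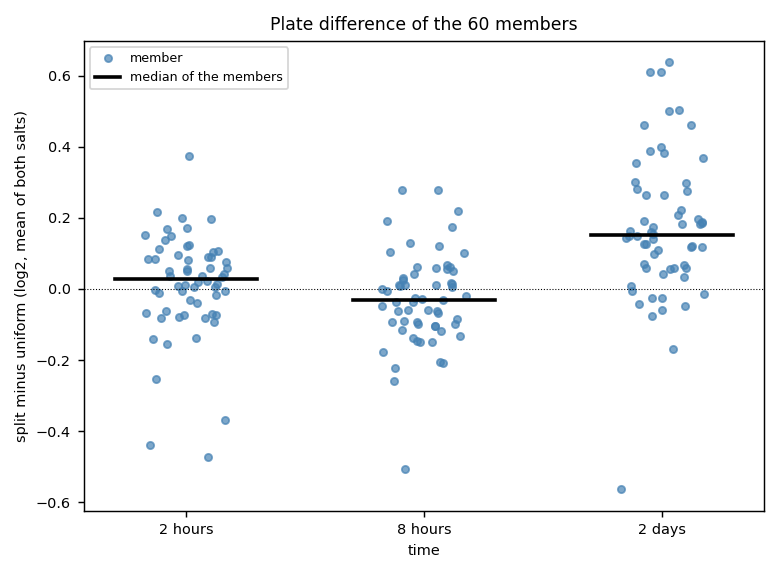
Split-minus-uniform difference of the 60 members at each time (points, log2, mean of both salts) with their median (bar), the KCl samples taken by their titles. The points centre near 0 at 2 hours and 8 hours and mostly lie above it at 2 days, where the median is 0.15 and no member passed the threshold.

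Arrays of 1 group also differed in how high the members stood together. The mean deviation of the 60 members from their group means was below 0 on replicate 1 in 12 of 12 groups, between -0.201 and -0.0203, while the same mean over all probe sets tested lay between -0.0255 and 0.00479. Replicate 2 was above 0 in 8 groups and replicate 3 in 10. The deviations of the 3 arrays of a group sum to 0, so that they are not independent. Averaged over the groups, 44 of the 60 members were below 0 on replicate 1, as were 51.1% of all probe sets. AT4G05070 was lower by 0.31 on average, in 10 of 12 groups, and 263019_at by 0.31 in 12 of 12. AT2G29340 was lower by 0.27 in 11 groups and AT2G29320 by 0.25 in 9. 259681_at and AT3G47510 stood farthest the other way, with mean deviations of 0.35 and 0.18 on replicate 1. Across the 36 arrays the deviations of the members had a mean pairwise correlation of 0.119, against 0.00255 for all probe sets tested. That is a description over arrays that share groups and repeats. The labels give repeat numbers without tying them to plants or days, and what the numbers share was not tested.

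**Figure D5:**
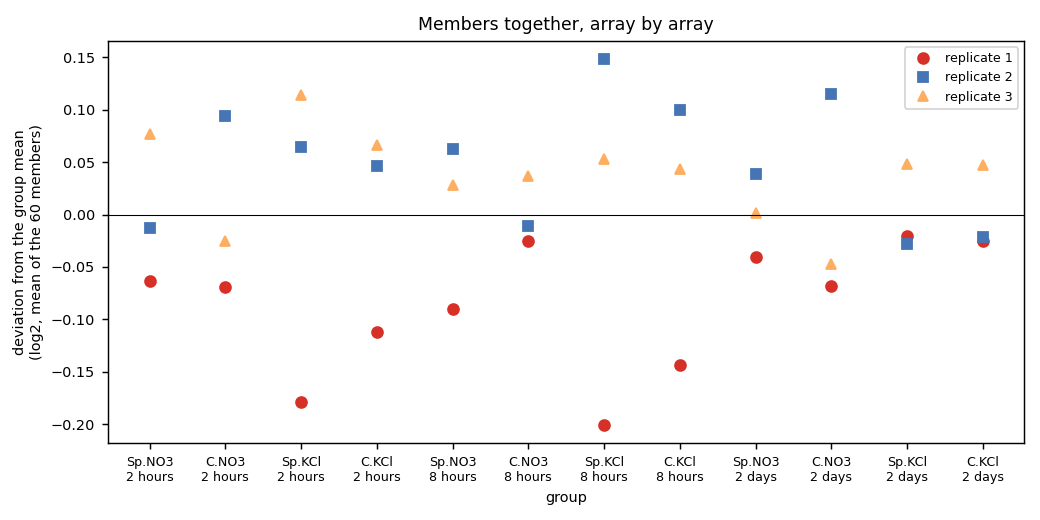
Mean deviation of the 60 members from the group mean on each of the 36 arrays (log2, up), by group (across) and replicate number (colour and shape). Replicate 1 lies below 0 in all 12 groups, and no replicate 2 or replicate 3 does so throughout.

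Genes known for the nitrate response were looked up through lists. The lists were nitrate transport, nitrate assimilation, reductant supply, regulators of the nitrate response, and cytokinin synthesis and response. They hold 19, 21, 15, 34 and 13 genes, of which 3, 2, 4, 4 and 2 have a probe set of their own in the annotation and 2, 2, 4, 4 and 2 could be tested. None of those with a probe set is a member. Whether any of the 36 members without a listed gene reads another list gene was not tested. On uniform plates over the times 1.58% of all probe sets passed as higher on nitrate, and on split plates 0.839%. Of the regulators 3 of 4 rose on uniform and 2 of 4 on split plates. HHO1 was higher by 1.05 ± 0.10 on split and by 0.79 ± 0.10 on uniform plates, and HHO3 by 0.59 ± 0.09 and 0.65 ± 0.09. HHO2 was higher by 0.52 ± 0.08 on uniform plates, and on split plates by 0.27 ± 0.08 without passing. All 3 are the repressors that the selection rule left out by name or by probe set. NRG2, a regulator upstream of nitrate genes, did not pass on either plate. Of reductant supply 3 of 4 rose on split plates, PGD1 by 0.29 ± 0.06 and PGD3 by 0.37 ± 0.08, which are 6-phosphogluconate dehydrogenases, and SIR, sulfite reductase, by 0.28 ± 0.07, and none passed on uniform plates. CNX6, of molybdenum cofactor synthesis, rose by 0.43 ± 0.06 on uniform plates and differed by 0.09 ± 0.06 on split plates, and SIRB, of sirohaem synthesis, did not pass. The transporters NPF6.2 and NPF3.1 and the response regulators ARR15 and ARR16 did not pass on either plate. The differences between the plates were not tested for these genes.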

How the data were processed

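The authors deposited MAS5 intensity signals on a linear scale, 1 column per array, per the submitters' processing notes, which name MAS5 without a version. The values show a scaling of all arrays to a mean of 500 after dropping 2% of the signals at each end. Further steps upstream were not given in the sources used here. Signals were converted to log2 after adding 16, with no further normalization, and 64 control probe sets were left out. In R 4.3.3, limma 3.58.1 fitted 12 group means to all 36 arrays with lmFit, contrasts.fit and eBayes with an intensity trend (24 residual degrees of freedom, median of 7.08 from the prior). For each contrast, two-sided p-values were adjusted by Benjamini-Hochberg over all 16091 probe sets, with a threshold of 0.05. The fit was tested on simulated data. The members and gene lists were chosen with earlier results of these data known. Members are named with values by rank (the leading 20, and 5 on either side of the limit), by smallest adjusted p in each test (up to 5 in each direction), and, beyond that rule, where the annotation gives a gene. Genes come from the platform's annotation table. Promoter sequence was not used here. Whether repeat numbers pair arrays was checked by correlating what same-numbered arrays of 2 groups had left after the group means were taken off. In both plate comparisons every pair exceeded 0.1 at 2 hours only, so the pairing comes from the data. Alternatives were offsets of 1 and 64, no filter or a mean signal of 200, quantile normalization, exchanged KCl labels, the replicate block, the quality index as a covariate, ordinary least squares, and each array left out. Calls by ordinary least squares needed p under 0.001 and adjusted p under 0.2.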

Additional observations from a re-analysis of the deposited data

Results flagged for a closer look

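The plate difference of AT3G47510 changed sign between times. At 8 hours it was -0.20 ± 0.13 (SE, split minus uniform, mean of both salts), with all 6 split arrays below the uniform mean of their salt, and at 2 days it was 0.19 ± 0.13, with all 6 split arrays above it. Neither value passed the limma threshold (adjusted p of 1.00 and 0.802), and the difference between the 2 times was not tested. With the KCl labels exchanged the values were -0.03 and -0.04, with no change of sign. The exchanged values are a weighting of the nitrate differences that chose the members.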

How the results depend on the processing

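All 30 time values of single members given by smallest adjusted p kept their direction and their side of the threshold under every alternative in which the member was tested. AT2G29340, AT2G29320 and 247452_at were not tested at a mean signal of 200 or more. In the plate test at 2 days, members higher on split plates numbered 4 with the replicate block and 2 by ordinary least squares, and the change of the plate difference from 2 hours to 2 days gave 1 with the replicate block. At 2 hours, where the numbers pair the arrays, the blocked fit called 0 members. Ordinary least squares called 19 members higher at 8 hours against 2 hours and 11 higher at 2 days against 2 hours. The quality index as a covariate left 12 lower at 2 days against 8 hours and 17 lower at 2 days against 2 hours. Among all probe sets it left 4597 and 6393 calls in either direction, against 10051 and 10286 without it. Split plates alone, chosen after seeing the data, gave 19 lower at 2 days against 8 hours, and uniform plates alone gave 12 higher at 2 days against 2 hours. The cause was not tested. With 1 array left out, members higher on split plates at 2 days numbered 0 to 3, those higher and lower at 8 hours 25 to 30 and 16 to 17, at 2 days against 8 hours 11 to 14 and 27 to 30, and at 2 days against 2 hours 17 to 21 and 24 to 29. Of the 60 members the rule chose 41 again with exchanged KCl labels, 49 with the index covariate or without the filter, 47 at a mean signal of 200 or more, 54 after quantile normalization or with an offset of 64, and 50 to 60 with 1 array left out. All 6 differences stayed above 0 for 58 members with exchanged labels (lowest -0.14 for AT1G31050 and -0.09 for AT3G07350), for 56 with the index covariate (-0.38 for 259632_at, -0.16 for 263146_at, -0.05 for AT2G29340 and -0.03 for AT4G30460), and for 57 to 60 with 1 array left out, where AT5G16860 was lowest with -0.11 without replicate 1 of Sp.KCl at 8 hours. Among all probe sets, calls for the plate at 2 days numbered 13, and 49 with exchanged labels, 66 with the replicate block, 42 by ordinary least squares, 7 after quantile normalization, 3 with the index covariate, and 1 to 26 with 1 array left out.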
